A study of Mus musculus with 20 samples.

Results

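Hspa1a and Hspa1b are the 2 genes of the mouse inducible HSP70 pair. They were followed through heat shock in fibroblasts without and with heat shock factor 1, HSF1, on 20 two-colour spotted arrays. Members were the probes that the platform annotation assigns to Hspa1a alone or to Hspa1b alone: 3 of 42624 probes, for 2 of the 10843 genes that have a probe listing a single gene. No probe listed either gene together with another. One Hspa1a probe had a value on all 20 arrays, and 1 Hspa1b probe had a value on 19, lacking an HSF1 +/+ array at 0 h. The other Hspa1b probe had a value on only 12 arrays and failed the minimum of 2 values in each of the 6 groups, so it is described apart.

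The groups were mouse fibroblasts HSF1 -/-, which lack the factor, and HSF1 +/+, which have both copies, each with 3 arrays at 0 h, before heat shock, and 1 array at each of 0.5, 1, 2, 3, 4, 6 and 8 h of heat shock. Cy5 carried the sample on each array, and Cy3 carried a pool of fibroblast mRNA, part heated for 1 h and part unheated, that was common to all arrays. A value is therefore the logarithm, taken as base 2, of sample over pool, centred here on the median of its array, and it gives no absolute level. Nothing in the labels says that the 0 h arrays came from separate cultures, and the tests then rest on a spread that may be technical. The labels name no separate lines within a genotype, so genotype cannot be told apart from other differences between the lines, nor from array order, since image numbers in the labels run through all HSF1 -/- arrays and then all HSF1 +/+ arrays. Neither the temperature nor any recovery time before harvest is given in the sources used here.

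HSP70 proteins bind exposed hydrophobic stretches of unfolded proteins and release them through cycles of ATP hydrolysis. J-domain proteins deliver the clients and start hydrolysis, and nucleotide exchange factors reset the cycle. The cognate HSP70, made from Hspa8, is present in unstressed cells, whereas Hspa1a and Hspa1b are intronless genes known for low activity at rest and strong transcription in the heat. HSF1 is held inactive in unstressed cells. On heating it forms trimers that bind heat shock elements, which are alternating GAA and TTC units in promoters.

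The promoters are shown because both genes are classical HSF1 targets and lie close together on chromosome 17. The sequences are from RefSeq, build GRCm38.p6, minus strand, chr17:34972157-34972406 for Hspa1a and chr17:34959239-34959488 for Hspa1b, and give the 250 bases before the gene start. Capitals mark a 2-unit element of the pattern GAANNTTC and, further on, ATTGG, which is a CCAAT box on the other strand.
Hspa1a: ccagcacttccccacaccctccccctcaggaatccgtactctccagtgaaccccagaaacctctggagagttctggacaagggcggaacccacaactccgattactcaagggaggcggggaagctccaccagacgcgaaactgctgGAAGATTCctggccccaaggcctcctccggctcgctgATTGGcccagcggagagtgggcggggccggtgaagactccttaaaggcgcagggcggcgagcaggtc
Hspa1b: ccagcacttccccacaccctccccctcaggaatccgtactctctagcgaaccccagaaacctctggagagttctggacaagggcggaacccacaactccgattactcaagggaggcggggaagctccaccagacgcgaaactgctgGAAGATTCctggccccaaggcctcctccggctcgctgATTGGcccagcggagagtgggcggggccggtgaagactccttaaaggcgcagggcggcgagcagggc
In this window 3 of 250 bases differed, which makes the promoters 98.8% identical. Counted from 1 at the 5′ end, with the Hspa1a base first and the Hspa1b base last, they are C44T, T47C and T249G. The 2-unit element starts at base 147 and the CCAAT box at base 184 in both genes. Both strands of the 300-base reference windows, 250 bases before and 50 after the gene start, were searched for the letters. GAANNTTC was found in 7.86% of 32851 promoters, CCAAT in 37.4% and either 2-unit pattern (GAANNTTC or TTCNNGAA) in 15.1%. The 3-unit patterns GAANNTTCNNGAA and TTCNNGAANNTTC, which contain the 2-unit ones and are each other's reverse complement, were found in 0.603%. TATAAA was found in 13.6%. The windows of Hspa1a and Hspa1b held none of the 3-unit patterns and no TATAAA. Only exact matches were counted, so elements with a changed letter or spacing were not looked for. Their absence is therefore not shown. The transcribed parts of the pair are also known to be nearly identical, so RNA of one gene can bind the probe of the other, and the probes are not independent measurements.

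At 0 h the RNA of both genes was low relative to the partly heated pool in both genotypes. Hspa1a had median-centred log2 ratios of -2.76, -2.66 and -2.37 on the HSF1 -/- arrays (mean -2.59 ± 0.20, SD, n = 3), against -2.33, -2.76 and -2.36 on the HSF1 +/+ arrays (mean -2.48 ± 0.24, SD, n = 3). The genotypes overlapped. For Hspa1b the log2 ratios were -1.40, -1.70 and -1.48 in HSF1 -/- (mean -1.53 ± 0.16, SD, n = 3), against -1.30 and -1.32 in HSF1 +/+ (mean -1.31 ± 0.01, SD, n = 2). Here every HSF1 -/- array lay below both HSF1 +/+ arrays, by a small margin. In the limma model of 6 groups the HSF1 -/- minus HSF1 +/+ difference at 0 h was -0.11 ± 0.80 (SE, 95% interval -1.80 to 1.58, adjusted p = 0.96) for Hspa1a and -0.22 ± 0.78 (-1.87 to 1.44, adjusted p = 0.917) for Hspa1b, which were not called, where 6.64% of all 10625 genes passed an adjusted p of 0.05. That spread is shared by all 6 groups and includes the early HSF1 +/+ arrays, which differ widely (SD 2.72 for Hspa1a and 2.25 for Hspa1b). Fitted on the 0 h arrays alone, the differences had an SE of 0.21 for each gene (limma adjusted p = 0.823 for Hspa1a and 0.639 for Hspa1b).

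Heated HSF1 -/- cells had Hspa1a log2 ratios of -2.35 at 0.5 h, -1.94 at 1 h, -2.43 at 2 h, -2.43 at 3 h, -2.84 at 4 h, -2.75 at 6 h and -2.38 at 8 h. Those values are spread on both sides of the 0 h arrays, and the 1 h array is the highest. Hspa1b read -1.86 at 0.5 h, -1.98 at 1 h, -2.12 at 2 h, -2.23 at 3 h, -2.00 at 4 h, -2.17 at 6 h and -1.79 at 8 h. All 7 heated HSF1 -/- arrays were below the 3 arrays at 0 h.

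In HSF1 +/+ cells the Hspa1a ratio was -1.90 at 0.5 h, 2.07 at 1 h, 3.32 at 2 h, 3.81 at 3 h, 2.55 at 4 h, 3.92 at 6 h and 3.12 at 8 h. The 6 arrays from 1 to 8 h lay far above the 3 arrays at 0 h, and the 0.5 h array lay just above them. For Hspa1b the ratios were -0.62 at 0.5 h, 2.72 at 1 h, 3.67 at 2 h, 4.33 at 3 h, 3.27 at 4 h, 4.74 at 6 h and 3.54 at 8 h. Its 7 heated arrays likewise all lay above the arrays at 0 h. The highest heated HSF1 -/- array, -1.94 for Hspa1a and -1.79 for Hspa1b, lay below the lowest HSF1 +/+ array of the period from 1 to 8 h, 2.07 for Hspa1a and 2.72 for Hspa1b.

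**Figure D1:**
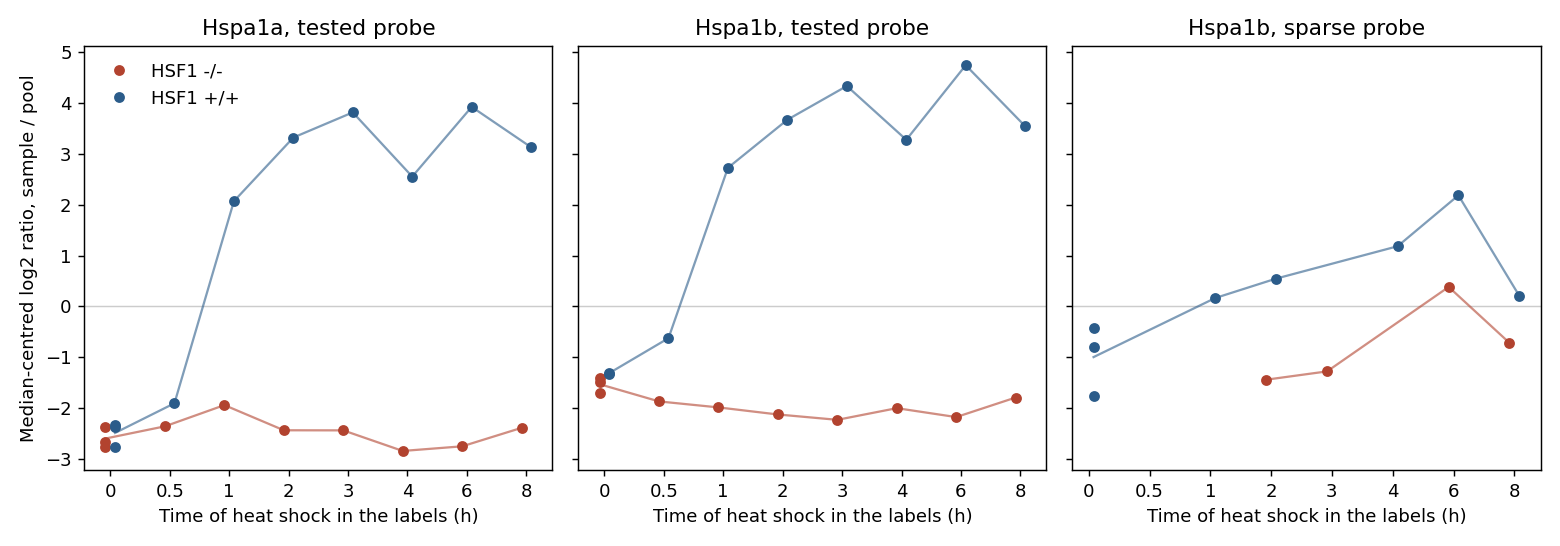
Median-centred log2 ratio of sample over pool (vertical axis) by time in the labels (horizontal axis, hours, drawn at equal steps) for the Hspa1a probe, the tested Hspa1b probe and the sparse Hspa1b probe. Points are arrays, HSF1 -/- in red and HSF1 +/+ in blue, and lines join the 0 h mean to the heated arrays that have a value. In the first 2 panels all HSF1 -/- points lie below 0, and the HSF1 +/+ points from 1 h on lie at 2.07 or higher.

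In HSF1 -/- cells neither gene was called in the late window. Late arrays, those at 3, 4, 6 and 8 h, averaged -2.60 ± 0.23 for Hspa1a (SD, n = 4), against -2.59 ± 0.20 at 0 h (SD, n = 3), a difference of -0.01 ± 0.75 (SE, 95% interval -1.59 to 1.58, limma adjusted p = 0.999). For Hspa1b the late arrays averaged -2.05 ± 0.20 (SD, n = 4), against -1.53 ± 0.16 at 0 h (SD, n = 3), a difference of -0.52 ± 0.66 (-1.91 to 0.87, adjusted p = 0.681). These errors again take in the spread of the early HSF1 +/+ arrays. Fitted on the HSF1 -/- arrays at 0 h and late alone, the SE was 0.18 for Hspa1a (limma adjusted p = 0.986) and 0.17 for Hspa1b (adjusted p = 0.0875), and the 4 late Hspa1b arrays all lay below the 3 at 0 h. Over all genes 10.7% were called in this contrast, 3.86% higher and 6.8% lower, so the heated HSF1 -/- arrays did differ from 0 h elsewhere. In the early window, 0.5, 1 and 2 h, the difference in HSF1 -/- was 0.35 ± 0.80 for Hspa1a (-1.34 to 2.05, adjusted p = 0.958) and -0.46 ± 0.70 for Hspa1b (-1.94 to 1.02, adjusted p = 0.924). By limma 0 genes (0%) were called in that window, and 793 had an unadjusted p under 0.05. The arrays of a window were taken at different times, so their spread includes change over time.

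Each heated time was then set against the 3 arrays at 0 h in a limma model with 1 group per genotype and time, where a lone heated array is assumed to vary like the repeated 0 h arrays. The HSF1 -/- differences from 0 h lay between -0.24 at 4 h and 0.66 at 1 h for Hspa1a (limma adjusted p from 0.813 to 1.00). For Hspa1b they lay between -0.70 at 3 h and -0.26 at 8 h (adjusted p from 0.307 to 1.00). The share of all genes called at a single time in HSF1 -/-, in either direction, was 0.0661% at 0.5 h, 0.182% at 1 h, 0.199% at 2 h, 0.0189% at 3 h, 0.33% at 4 h, 0.95% at 6 h and 1.36% at 8 h. Between neighbours in the order of levels no gap exceeded its interval. Farther apart, the Hspa1a gap between 1 h and 4 h was 0.90, beyond a half-width of 0.854, and the Hspa1b gaps between 0 h and both 6 h (0.65) and 3 h (0.70) were beyond 0.640. These pairs are extremes picked after the values were seen. The intervals are not adjusted for the number of pairs, so such gaps can arise without a change over time.

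The Hspa1b probe read lower on the 7 heated than on the 3 unheated HSF1 -/- arrays on average (heated minus 0 h, -0.50), and for Hspa1a that difference was 0.15. No p is given for either, since the comparison was chosen after the values were seen. Of all genes, 4.1% had all 7 heated HSF1 -/- arrays below the 3 at 0 h.

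The large step in HSF1 +/+ cells came between 0.5 and 1 h. In the limma model with 1 group per genotype and time, the SE of a heated array minus the 0 h mean in HSF1 +/+ was 0.30 for Hspa1a and 0.28 for Hspa1b at every time. At 0.5 h the log2 difference was 0.58 for Hspa1a (adjusted p = 0.635) and 0.69 for Hspa1b (adjusted p = 0.533), and neither passed, beside 0.135% of genes called higher at that time. The unadjusted 95% interval was -0.11 to 1.28 for Hspa1a and 0.0094 to 1.37 for Hspa1b, so a smaller rise by 0.5 h is possible. At 1 h both rose, Hspa1a by 4.55 (23.4-fold, limma adjusted p = 0.0117) and Hspa1b by 4.03 (16.4-fold, adjusted p = 0.0336), and these were the 2 genes, 0.0189% of those tested, called higher at 1 h. The 1 h calls were fragile: leaving out any 1 HSF1 -/- array at 0 h raised the adjusted p to between 0.0584 and 0.0912 for Hspa1a at a log2 difference of 4.55. For Hspa1b it rose to between 0.113 and 0.192 without any of the arrays at 0 h except the HSF1 +/+ array on which it has no value, with log2 differences of 4.02 to 4.04.

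At 2 h 4 genes were called higher (0.0377%). Hspa1a was up by 5.80 (55.7-fold, limma adjusted p = 0.0011) and Hspa1b by 4.98 (31.5-fold, adjusted p = 0.00644). The other two, named after their values were seen, were Slc22a12, a urate transporter of the kidney, at 4.53 (adjusted p = 0.0144), and Il1r1, the receptor for interleukin 1, at 3.32 (adjusted p = 0.0349).

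The highest level was at 6 h for both genes, with 3 h close behind. Hspa1a stood 6.29 above 0 h at 3 h (78.4-fold, limma adjusted p = 0.00123) and 6.40 at 6 h (84.5-fold, adjusted p = 0.0011). Hspa1b stood 5.64 above 0 h at 3 h (49.8-fold, adjusted p = 0.00347) and 6.05 at 6 h (66.1-fold, adjusted p = 0.00301). The share of genes called higher was 0.589% at 3 h and 0.37% at 6 h. The order of the HSF1 +/+ levels was the same for both probes, 6 h above 3, 2, 8, 4, 1, 0.5 and 0 h. Since the probes can bind each other's RNA and the arrays are the same, the shared order is not a second measurement.

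Most neighbours in that order could not be told apart. For Hspa1a the 95% interval of a difference between lone arrays extends 0.854 log2 units each way, and the step between 1 h and 0.5 h, 3.97, was the only step between neighbours beyond its interval. For Hspa1b the step between 1 h and 0.5 h was 3.35, against a half-width of 0.784. Its step between 0.5 h and 0 h, 0.69, was just beyond a half-width of 0.679, although the adjusted p over all genes was 0.533. Set against 6 h, Hspa1a was lower by more than its interval at 4 h (gap 1.37) and 1 h (1.85), and not at 3 h (0.11), 2 h (0.60) or 8 h (0.79). For Hspa1b the gap to 6 h was beyond the interval at 2 h (1.07), 8 h (1.20), 4 h (1.46) and 1 h (2.01), and not at 3 h (0.41). The dip at 4 h, seen in both probes, rests on 1 array. The intervals are not adjusted for the number of pairs, and 6 h was chosen for its highest level.

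Both genes stayed high to the last time measured. At 4 h the rise over 0 h was 5.03 for Hspa1a (32.7-fold, limma adjusted p = 0.00557) and 4.58 for Hspa1b (24.0-fold, adjusted p = 0.0104), with 0.0952% of genes called higher. At 8 h it was 5.61 for Hspa1a (48.8-fold, adjusted p = 0.00276) and 4.85 for Hspa1b (28.8-fold, adjusted p = 0.00752), with 0.472% of genes called higher. No later time was measured, so the data do not show when the RNA returns to its level at 0 h. Calls that were lost when 1 array at 0 h was left out are those of Hspa1b at 2 h, without HSF1 -/- array 1 or 3 or HSF1 +/+ array 2 (log2 difference 4.98 or 4.99, adjusted p = 0.0561 to 0.0695), and at 4 h, without HSF1 -/- array 1 or 3 (4.58, adjusted p = 0.0728 and 0.103).

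The rise was tested again over windows, which use the spread between heated arrays as well. Late arrays averaged 3.35 ± 0.64 for Hspa1a (SD, n = 4), against -2.48 ± 0.24 at 0 h (SD, n = 3), in HSF1 +/+. The difference of 5.83 ± 0.75 (SE, 95% interval 4.25 to 7.42) is a 57.0-fold rise (limma adjusted p = 0.00184). For Hspa1b the late arrays averaged 3.97 ± 0.68 (SD, n = 4), against -1.31 ± 0.01 at 0 h (SD, n = 2), a difference of 5.28 ± 0.74 (3.71 to 6.85), or 38.8-fold (adjusted p = 0.00233). Among all genes 3.6% were called higher and 3.67% lower in this contrast. Hspa1a and Hspa1b had the 2 highest differences of the 10625 genes. The next, named after its values were seen, was Nfkbiz, which encodes an atypical inhibitor of NF-kappaB, at 3.82 ± 0.82 (adjusted p = 0.012). The upper ends of the late intervals in HSF1 -/-, 1.58 for Hspa1a and 0.87 for Hspa1b, lie below the lower ends in HSF1 +/+, 4.25 and 3.71.

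The early window joins the array at 0.5 h, before the large step, with arrays after it. The early minus 0 h difference in HSF1 +/+ was 3.64 ± 0.80 for Hspa1a (SE, 95% interval 1.95 to 5.34, limma adjusted p = 0.123) and 3.23 ± 0.78 for Hspa1b (1.58 to 4.89, adjusted p = 0.188). These are again the 2 highest differences of all genes, and neither passed, where 0.00941% of genes were called higher. With 1 array left out the difference ranged from 2.57 without the 2 h array (adjusted p = 0.3) to 5.17 without the 0.5 h array (adjusted p = 2.27e-06) for Hspa1a, and from 2.36 (adjusted p = 0.339) to 4.51 (adjusted p = 2.85e-05) without the same arrays for Hspa1b. Of the 6 omissions, that of the 0.5 h array alone gave a call. Over all 7 heated arrays the mean was 4.90 above 0 h for Hspa1a and 4.40 for Hspa1b, given without a p for the same reason as in HSF1 -/-. Among genes with all 10 HSF1 +/+ values, which Hspa1b is not, all 7 heated arrays lay above those at 0 h in 2.09%.

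**Figure D2:**
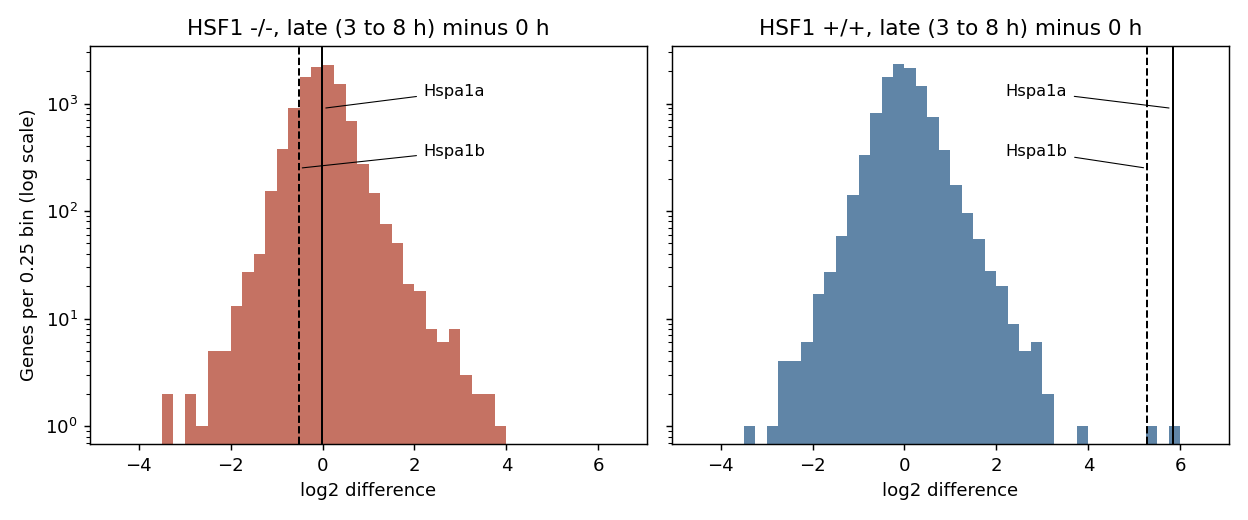
Number of genes per bin of 0.25 log2 units (vertical axis, log scale) by late minus 0 h difference (horizontal axis, log2), HSF1 -/- on the left and HSF1 +/+ on the right, with Hspa1a as a solid and Hspa1b as a dashed line. The lines stand at -0.01 and -0.52 inside the mass of genes in HSF1 -/-, and at 5.83 and 5.28, above all other genes, in HSF1 +/+.

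Set side by side at each time, the gap between the genotypes widened most between 0.5 and 1 h. The HSF1 -/- minus HSF1 +/+ difference of Hspa1a was -0.45 at 0.5 h, -4.00 at 1 h, -5.75 at 2 h, -6.24 at 3 h, -5.39 at 4 h, -6.66 at 6 h and -5.51 at 8 h. For Hspa1b it was -1.24 at 0.5 h, -4.70 at 1 h, -5.79 at 2 h, -6.55 at 3 h, -5.27 at 4 h, -6.91 at 6 h and -5.33 at 8 h. HSF1 -/- was the lower genotype at all 7 times for both genes. At 0.5 h the Hspa1b difference was beyond the unadjusted half-width of 0.784 for lone arrays, whereas that of Hspa1a was within 0.854. That Hspa1b difference includes the -0.22 between genotypes at 0 h and the change of -0.34 from 0 h in HSF1 -/-. The rise in HSF1 +/+ was 0.69 (limma adjusted p = 0.533). Paired by time over the 14 heated arrays, the mean difference was -4.86 ± 0.64 for Hspa1a (SE, 95% interval -6.30 to -3.42, limma adjusted p = 0.00346) and -5.11 ± 0.57 for Hspa1b (-6.39 to -3.84, adjusted p = 0.00152). These were the 2 lowest differences of all genes, of which 3.13% were called lower and 2.42% higher. The exact two-sided sign-flip permutation test of the 7 differences gave p = 0.0156 for each gene, the smallest that 7 pairs allow. Both tests take the 7 times as the units, with 1 array per genotype at each. Their p-values therefore measure how alike the difference was across times, not across repeated cultures of a genotype.

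**Figure D3:**
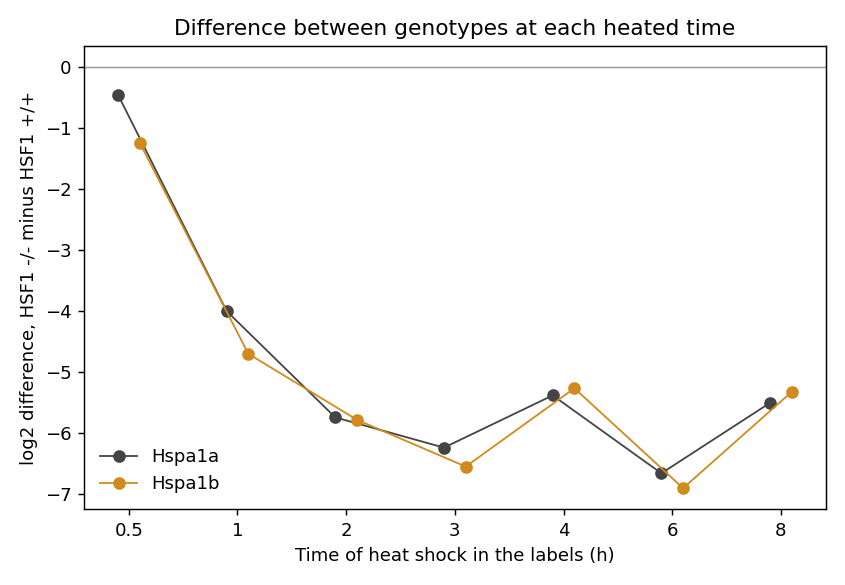
Difference in median-centred log2 ratio, HSF1 -/- minus HSF1 +/+ (vertical axis), at each heated time in the labels (horizontal axis, hours, drawn at equal steps), for Hspa1a in grey and Hspa1b in orange, 1 array per genotype and time. Both lines drop between 0.5 and 1 h and stay between -4.00 and -6.91 from 1 to 8 h.

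The difference between the genotypes in the response itself was tested as an interaction. The late response, HSF1 -/- minus HSF1 +/+, was -5.84 ± 1.06 for Hspa1a (SE, 95% interval -8.08 to -3.60, limma adjusted p = 0.0438) and -5.80 ± 0.99 for Hspa1b (-7.89 to -3.70, adjusted p = 0.0438). They were the 2 lowest of all genes, and 0.0753% of genes, 8 in number, were called lower. Leaving out any 1 of the 14 arrays ended the call for Hspa1a (-6.11 to -5.65, adjusted p = 0.0513 to 0.12). For Hspa1b (-6.03 to -5.54) it ended the call with an adjusted p of 0.0514 to 0.142, except for the HSF1 +/+ array at 0 h on which the gene has no value, without which the adjusted p was 0.0227. The early response was -3.29 ± 1.14 for Hspa1a (adjusted p = 0.581) and -3.70 ± 1.05 for Hspa1b (adjusted p = 0.578), and limma called 0 genes (0%) in that contrast, with 889 at an unadjusted p under 0.05. Among the 12 omissions of 1 array, only that of the HSF1 +/+ array at 0.5 h gave a call. Without it the early response difference was -4.82 for Hspa1a and -4.97 for Hspa1b (limma adjusted p = 0.000244 for both). That omission leaves windows of unlike times, since HSF1 -/- keeps its 0.5 h array. Over the 12, the adjusted p reached 0.803 for both genes.

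The sparse Hspa1b probe gave a smaller contrast. Its log2 ratios in HSF1 -/- were -1.44 at 2 h, -1.27 at 3 h, 0.38 at 6 h and -0.72 at 8 h, with no value at 0 h. In HSF1 +/+ they were -0.41, -0.80 and -1.76 at 0 h, and then 0.16 at 1 h, 0.55 at 2 h, 1.18 at 4 h, 2.18 at 6 h and 0.21 at 8 h. The heated HSF1 +/+ arrays averaged 1.85 above the 0 h mean of -0.99, and each lay above all 3 arrays at 0 h, while the HSF1 -/- array at 6 h lay above the HSF1 +/+ arrays at 1 and 8 h. Signal over background was not examined, so whether this probe was close to background is not known here. For all probes, a value at background in unheated cells would make the fold over 0 h a lower bound.

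Separation from every other array was rare. The 7 heated HSF1 +/+ arrays lay above all 13 other arrays in 9 of 10064 genes (0.0894%), counting for each gene the other arrays on which it has a value, which for Hspa1b are 12. Hspa1a and Hspa1b were among them, with the J-domain cofactor Dnajb1, the constitutive HSP70 gene Hspa8, and Dkk1, Fhl2, Fosl1, Jmjd6 and Myl10. Counting only 1 to 8 h, 24 of 10281 genes (0.233%) stood above all other arrays. That set held Hspa1a and Hspa1b, and also Hsph1, Hspa8, Dnaja1, Dnajb1, Dnajb4, Hsp90aa1, Hspb1 and Hspd1 among chaperone genes. The rest, more than those named so far, were Arc, Atp6v1b2, Cacybp, Ccdc117, Chrd, Csrp2, Ebpl, Fam126a, Il13ra1, Med14, Mns1, Pwwp2a, Tmem33 and Zfand2a.

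The rest of the HSP70 machinery was read from lists of 97 genes, of which 79 were tested. In HSF1 -/- cells 0 rose and 8 fell in the late window, with a median log2 difference of -0.11 beside -0.02 for all genes. In HSF1 +/+ cells 12 rose and 1 fell, with a median of 0.09 beside -0.02 for all genes. The shares of all genes were 3.86% higher and 6.8% lower in HSF1 -/-, and 3.6% higher and 3.67% lower in HSF1 +/+.

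Of the 10 tested relatives in the HSP70 and HSP110 family, 2 fell in late HSF1 -/- arrays and 4 rose in late HSF1 +/+ arrays. Of all genes 6.8% were called lower in the first contrast and 3.6% higher in the second. Those that fell in HSF1 -/- were Hspa5, the HSP70 of the endoplasmic reticulum, by 0.90 (limma adjusted p = 0.00616), and Hspa13, by 0.63 (adjusted p = 0.0119). Hsph1, an HSP110 that acts as an exchange factor for HSP70, stood at -0.18 in HSF1 -/- without a call and rose by 2.32 ± 0.37 in HSF1 +/+ (adjusted p = 0.00269). Hspa4l, another HSP110, stood at 0.55 in HSF1 -/-, not called, and rose by 1.85 ± 0.48 in HSF1 +/+ (adjusted p = 0.0292). Hspa2, the testis-enriched HSP70, stood at -0.56 in HSF1 -/-, not called, and rose by 1.68 ± 0.33 in HSF1 +/+ (adjusted p = 0.00761). Hspa8, the constitutive cognate, stood at -0.34 in HSF1 -/-, not called, and rose by 1.00 ± 0.20 in HSF1 +/+ (adjusted p = 0.00792).

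Of 33 J-domain cofactors 2 fell in late HSF1 -/- arrays, beside 6.8% of all genes called lower. They were Dnajc8, by 0.92 (limma adjusted p = 0.00127), and Dnajc10, which sits in the endoplasmic reticulum, by 0.76 (adjusted p = 0.0167). In late HSF1 +/+ arrays 3 rose, beside 3.6% of all genes called higher. Dnajb1, the HSP40 of the heat shock response, stood at 0.00 in HSF1 -/- and rose by 2.11 ± 0.25 in HSF1 +/+ (adjusted p = 0.00121). Dnajb4 stood at 0.28 in HSF1 -/- and rose by 1.16 ± 0.28 in HSF1 +/+ (adjusted p = 0.0215), and Dnaja1 stood at -0.02 in HSF1 -/- and rose by 1.05 ± 0.21 in HSF1 +/+ (adjusted p = 0.00887). None of these 3 was called in HSF1 -/-. Dnajb1 was also the list gene called higher in the early window of HSF1 +/+, at 1.78 ± 0.26 (adjusted p = 0.0302).

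Of 9 nucleotide exchange factors 1, Grpel2, a mitochondrial one, fell in late HSF1 -/- arrays, by 0.49 (limma adjusted p = 0.013), and none passed in HSF1 +/+. Of all genes 6.8% were called lower in that HSF1 -/- contrast. Bag3, an exchange factor known to be heat inducible, stood at 0.04 in HSF1 -/- (adjusted p = 0.975) and at 0.52 ± 0.46 in HSF1 +/+ (adjusted p = 0.518). None of the 6 adaptors, which link HSP70 to HSP90 and other partners, passed in either genotype. Their median was -0.27 in HSF1 -/-, with 0 above 0, and -0.25 in HSF1 +/+, where only 1, Stip1, stood above 0. Stip1 stood at -0.43 in HSF1 -/- (adjusted p = 0.346) and at 0.39 ± 0.27 in HSF1 +/+ (adjusted p = 0.401). Tomm70a had the smallest p of the list in HSF1 +/+, at -0.84 ± 0.34 (limma adjusted p = 0.139). In HSF1 -/- it stood at -0.64 (adjusted p = 0.249). Of 8 small heat shock proteins, which hold unfolded proteins without ATP, 2 fell in HSF1 -/- and 3 rose in HSF1 +/+. The shares of all genes were 6.8% lower in HSF1 -/- and 3.6% higher in HSF1 +/+. Hspb8 fell by 0.67 in HSF1 -/- (adjusted p = 0.0403) and rose by 1.09 ± 0.20 in HSF1 +/+ (adjusted p = 0.0054). Cryab fell by 0.63 in HSF1 -/- (adjusted p = 0.0261) and rose by 1.01 ± 0.17 in HSF1 +/+ (adjusted p = 0.00378). Hspb1 stood at 0.60 in HSF1 -/- (adjusted p = 0.375) and rose by 1.81 ± 0.40 in HSF1 +/+ (adjusted p = 0.0124).

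Of 10 genes for HSP90 and its cofactors, 1 fell in late HSF1 -/- arrays, Fkbp4, by 0.59 (limma adjusted p = 0.0223), and 2 rose and 1 fell in late HSF1 +/+ arrays. The shares of all genes were 6.8% lower in HSF1 -/-, and 3.6% higher and 3.67% lower in HSF1 +/+. Hsp90aa1, the inducible cytosolic HSP90, stood at 0.13 in HSF1 -/- (limma adjusted p = 0.729) and rose by 1.36 ± 0.19 in HSF1 +/+ (adjusted p = 0.00184). Chordc1, an HSP90 cofactor, stood at 0.42 in HSF1 -/- (adjusted p = 0.499) and rose by 1.31 ± 0.35 in HSF1 +/+ (adjusted p = 0.0319). Ppp5c, a phosphatase bound to HSP90, stood at -0.43 in HSF1 -/- (adjusted p = 0.102) and fell by 0.66 ± 0.16 in HSF1 +/+ (adjusted p = 0.0227). None of 3 tested heat shock factor genes and partners passed. Hsf1 and Hsf2 have no probe listing a single gene, so the genotype was not checked on its own transcript. Paired by time over the heated arrays, 15 of the 79 list genes were lower in HSF1 -/- and 0 higher, beside 3.13% and 2.42% of all genes. These include Hsph1 at -2.37 (adjusted p = 0.0058), Dnajb1 at -2.24 (adjusted p = 0.000467), Hspa8 at -1.68 (adjusted p = 0.00132) and Hsp90aa1 at -1.54 (adjusted p = 0.00345). The paired difference includes any difference already present at 0 h. At 0 h 6 of the 79 were called lower in HSF1 -/- and 0 higher, beside 6.64% of all genes called in either direction. Hsp90aa1 stood at -0.72 there (limma adjusted p = 0.0399). Not called at 0 h were Hspa8 at -0.64, Hsph1 at -0.56 and Dnajb1 at -0.34. In the late interaction 3 of 79 were lower, beside 0.0753% of all genes. They were Dnajb1 at -2.11 (limma adjusted p = 0.0402), Hspb8 at -1.77 (adjusted p = 0.0402) and Cryab at -1.64 (adjusted p = 0.036). The number of genes called in that contrast in either direction, 10 here, ranged from 0 to 16 with 1 array left out.

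**Figure D4:**
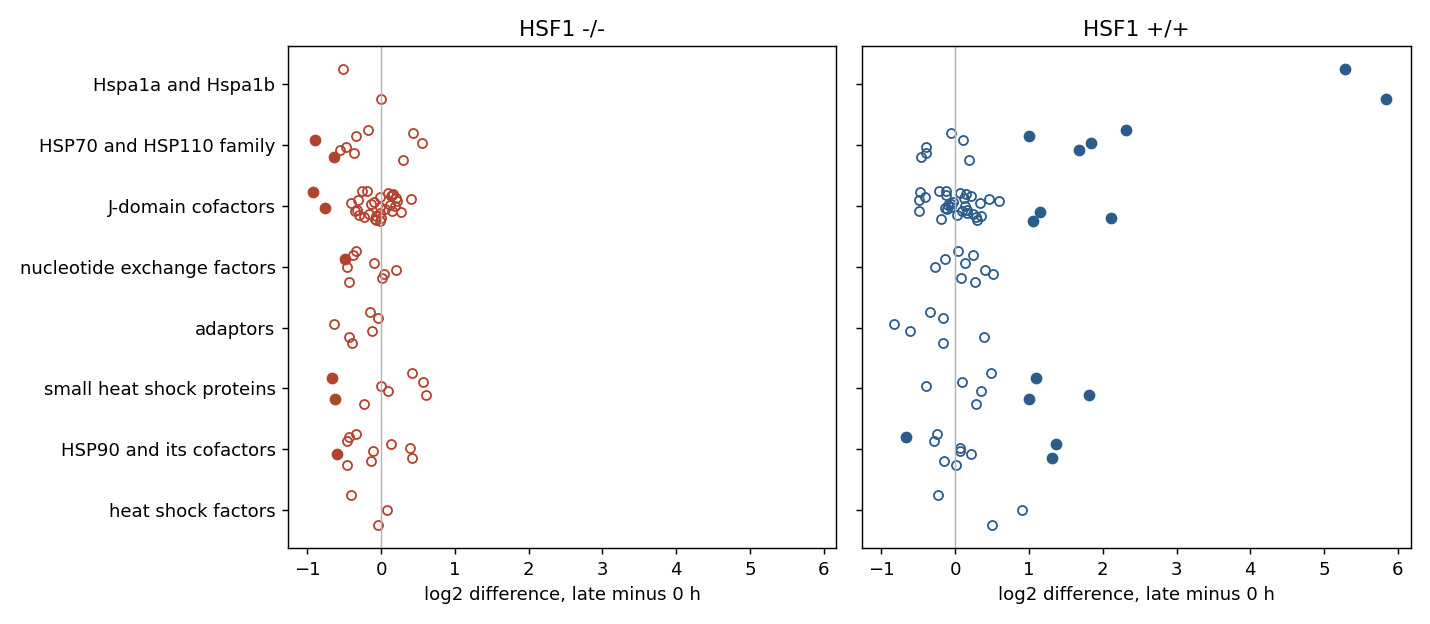
Late minus 0 h log2 difference (horizontal axis) of each tested gene in the HSP70 machinery lists (rows), HSF1 -/- on the left and HSF1 +/+ on the right; filled points passed an adjusted p of 0.05 and open ones did not, and vertical scatter within a row carries no value. In HSF1 +/+ Hspa1a and Hspa1b stand at 5.83 and 5.28, and the highest list gene, Hsph1, at 2.32.

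By course over the 20 arrays, the genes most like Hspa1a among the 9459 with a value on every array were, in order of Pearson correlation, Hsph1 (0.972), Chrd (0.960), Dnajb1 (0.956), Dnaja1 (0.939), Hsp90aa1 (0.931), Dnajb4 (0.923), Ccdc117 (0.914), Pwwp2a (0.897), Mns1 (0.886) and Hspe1 (0.886). Hspe1 encodes the HSP10 cap of the mitochondrial chaperonin, and Chrd encodes chordin, a secreted antagonist of bone morphogenetic proteins. The arrays fall into 2 sets, heated HSF1 +/+ from 1 h on and the rest, so these correlations mostly reflect the step between the sets. Within the 7 heated HSF1 +/+ arrays the correlations were 0.981 for Hsph1 and for Chrd, and from 0.835 for Mns1 to 0.925 for Pwwp2a among the others. The 0.5 h array, before the large step, is among these 7.

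Late minus 0 h differences of the 10 genes ran from -0.18 for Hsph1 to 0.48 for Pwwp2a in HSF1 -/-, and from 0.86 for Mns1 to 2.73 for Chrd in HSF1 +/+, below those of Hspa1a and Hspa1b. The genes were chosen for likeness to Hspa1a over the same arrays, which fixes this pattern, so the values are a description without a test. Of the 8 with a reference promoter, 4 held a 2-unit element (Hsph1, Dnaja1, Dnajb4 and Hspe1) and 2 a 3-unit one (Hsph1 and Hspe1), beside 15.1% and 0.603% of all promoters. Several of these genes have more than 1 promoter in the table, which raises the chance of a match.

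**Figure D5:**
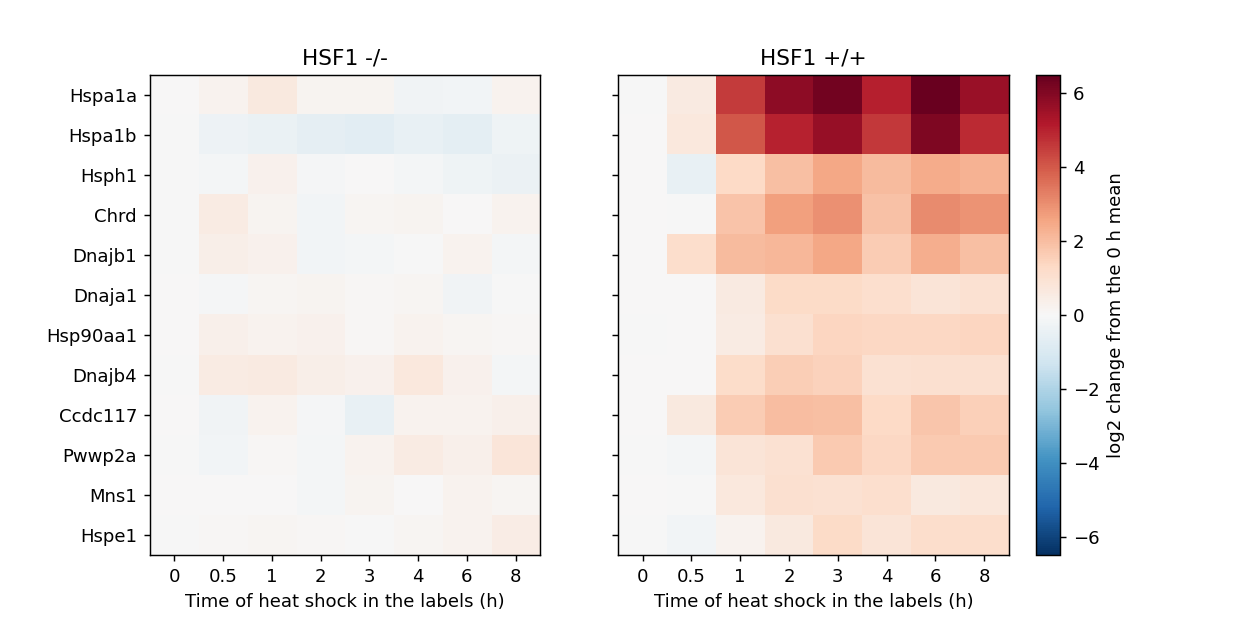
Change in log2 ratio from the 0 h mean of the same genotype (colour, blue below and red above 0) for Hspa1a, Hspa1b and the 10 genes most correlated with Hspa1a (rows) by time in the labels (columns, hours), HSF1 -/- on the left and HSF1 +/+ on the right. For the 10 genes the HSF1 -/- changes in heat lie between -0.46 and 0.78 and the HSF1 +/+ changes from 1 h on between 0.22 and 3.07, and the deepest red is Hspa1a in HSF1 +/+ at 6 h (6.40).

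None of the tested genes beside the pair on chromosome 17 was called higher in late HSF1 +/+ arrays. Hspa1l, the testis-expressed HSP70 gene of the cluster, has no probe listing it alone. Among the 5 nearest tested genes on each side, 5 of 10 were called in late HSF1 -/- arrays, beside 10.7% of all genes. Ehmt2, a histone methyltransferase, fell by 0.66, D17H6S56E-5 by 0.69, the chloride channel protein Clic1 by 0.94 and Ddah2 by 1.02, and 1110038B12Rik rose by 0.82. Not called in late HSF1 +/+ arrays were Ehmt2 at -0.64 (limma adjusted p = 0.0594), D17H6S56E-5 at -0.34, Clic1 at -0.41 and 1110038B12Rik at 0.06. The counts of calls therefore do not show that the genotypes differ. In late HSF1 +/+ arrays 2 of 10 were called and both fell, beside 3.6% of all genes higher and 3.67% lower. These were Lsm2, part of an RNA-binding ring, by 1.06 ± 0.24 (limma adjusted p = 0.0135) and Ddah2 by 0.82 ± 0.21 (adjusted p = 0.0253). Lsm2 stood at -0.47 in HSF1 -/-, not called (adjusted p = 0.228). Slc44a4, the highest of the 10 in HSF1 +/+, stood at 0.44 in HSF1 -/- (adjusted p = 0.544) and at 0.95 ± 0.45 in HSF1 +/+ (adjusted p = 0.202).

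Across the whole series, an array had between 39037 and 42220 values, array medians lay between -0.53 and -0.18, and correlations between 2 arrays over their probes lay between 0.423 and 0.805. Precision is limited by the number of arrays. Against a pool of fibroblast RNA the ratios cannot show whether fibroblast markers are expressed. Of 12 such markers 9 were tested, and at 0 h 2 were higher and 1 lower in HSF1 -/-, beside 6.64% of all genes called. Of 4 tested macrophage markers, Cd68 was lower in HSF1 -/- at 0 h, at -0.83 (limma adjusted p = 0.0299), and no tested epithelial, endothelial or muscle marker was called there. The part of these differences in the Hspa1a and Hspa1b results was not tested. Bulk RNA cannot tell fewer responding cells from less RNA per cell.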

How the data were processed

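Per the labels, Cy5 held the sample and Cy3 the common pool on every array. The values deposited by the authors are log2 ratios, 1 per probe and array. Base 2 is an assumption. Values reach 10.2 in size, beyond the 4.82 possible for log10 ratios of 16-bit signals, and if the authors used natural logarithms the folds given here are too small. Background correction, spot filters and normalization by the authors are not given in the sources used here, and spot intensities were not used, so signal over background is unknown.

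The median of each array was subtracted. A probe needed at least 2 values in each of 6 groups (genotype by 0 h, early and late). A gene took the mean of its probes, each relative to its own mean over arrays (20881 probes, 10625 genes). Of 21701 probes listing 1 gene, 21650 were found in the reference table. limma 3.58.1 in R 4.3.3 (lmFit, eBayes, two-sided) was fitted to all genes: on 6 groups of all 20 arrays (prior degrees of freedom 3.36), on 16 groups of genotype and time (prior 3.04, with 4 residual degrees of freedom for Hspa1a and 3 for Hspa1b, from the 0 h arrays), and on the 14 heated arrays with time as a block. P-values were adjusted by Benjamini-Hochberg over all genes of a contrast, with a threshold of 0.05. The fits were run on simulated data with independent normal noise and a fixed shift, to check that the median estimate recovered the shift. Those runs do not show how often calls in the real data are wrong.

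The members, lists and tests were chosen with earlier results of these data known. Named genes were the 2 members, the 10 genes most correlated with Hspa1a, the 4 or fewer genes of each list with the smallest p, and 5 tested neighbours on each side, besides genes named beside small counts. The replicate numbers at 0 h do not pair the genotypes (correlations 0.01, -0.01 and -0.01). Alternatives were other array scalings, filters and probe rules, fewer arrays, and a replicate block. No value columns belonged to samples outside the series.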

Additional observations from a re-analysis of the deposited data

Results flagged for a closer look

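The late response of Hspa1a differed between genotypes by -5.84 (HSF1 -/- minus HSF1 +/+, log2), and that of Hspa1b by -5.80, both by a test of the difference itself (limma adjusted p = 0.0438 for each). The call was lost in 18 of 22 alternatives for Hspa1a, among them each single array left out, and in 17 of 21 for Hspa1b. The late change was -0.01 in HSF1 -/- and 5.83 in HSF1 +/+ for Hspa1a, and -0.52 in HSF1 -/- and 5.28 in HSF1 +/+ for Hspa1b. The 2 probes can bind each other's RNA, so they count as less than 2 independent cases.

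The sparse Hspa1b probe, left out of the tests, still had a signal: its heated HSF1 +/+ arrays averaged 1.85 above its 0 h mean, each above every 0 h array. The tested Hspa1b probe gave 4.40 for the same contrast of heated and unheated arrays, although over arrays that are not all the same.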

How the results depend on the processing

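Over 44 results for Hspa1a and Hspa1b, 493 alternatives were run: 425 kept direction and side of the threshold, 50 lost a call, 8 gained one and 10 changed sign, none of the last with a call in either setting. Most of the 44 results had no call to lose, so these totals do not measure how stable the calls were. The 50 losses all fell on the late interaction and on HSF1 +/+ rises at 1, 2 and 4 h. The late rise in HSF1 +/+ and the paired difference kept their calls with any 1 array or time left out: late Hspa1a 5.64 to 6.10, late Hspa1b 5.02 to 5.51, paired Hspa1a -5.59 to -4.56, paired Hspa1b -5.76 to -4.81. The late interaction was the least stable. Without centring it was -5.83 for Hspa1a (adjusted p = 0.0609) and -5.75 for Hspa1b (0.0598), without a filter -5.84 (0.0578) and -3.82 (0.117), on single probes -5.84 (0.0581) and -5.80 (0.0568). With 1 array left out it ranged from -6.11 to -5.65 for Hspa1a and from -6.03 to -5.54 for Hspa1b. With the replicate block, for numbers that do not pair the samples, it was -5.84 (0.154) and -5.73 (0.186). With the 0.5 h arrays of both genotypes left out, an alternative added later, after seeing the data, the early rise in HSF1 +/+ was 5.17 (7.65e-06) and 4.51 (8.4e-05), and the early interaction -4.77 and -5.03 (0.00132 for both). With 1 array left out, the early rise ranged from 2.57 to 5.17 and from 2.36 to 4.51, and the early interaction from -4.82 to -2.21 and from -4.97 to -2.82. The 1 h rise in HSF1 +/+ with the width of arrays scaled was 4.18 (0.106) and 3.84 (0.124), and with a 0 h array left out 4.41 to 4.63 and 4.02 to 4.04. For Hspa1b it was 4.97 to 4.99 at 2 h and 4.58 to 4.59 at 4 h with a 0 h array left out. Signs that changed were all in uncalled differences that involve HSF1 -/-: late Hspa1a without centring 0.061, and -0.088 to 0.11 with 1 array left out, Hspa1a at 0 h without centring 0.0027, late Hspa1b without a filter 0.11, Hspa1a at 3 h -0.16 by quantile and -0.44 by width scaling, and Hspa1a at 8 h -1.30 and -0.65. Late HSF1 -/- differences moved without a call to -0.58 for Hspa1a and -1.01 for Hspa1b by quantile, and to -0.65 and -1.02 by width scaling. The cause of these changes was not tested. A filter to genes on all arrays leaves no Hspa1b value. Counts of called genes moved more: late HSF1 -/- 1133, from 518 to 1101 with 1 array left out and from 882 to 2399 otherwise, late HSF1 +/+ 772, from 378 to 822 and from 164 to 1602, paired 590, from 334 to 441 and from 554 to 700, late interaction 10, from 0 to 16 and from 0 to 11.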
